A study of Homo sapiens with 18 samples.

Results

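The aldehyde dehydrogenase family was described here through 10 genes, chosen by name from the 28277 genes of the count table: ALDH1A1, ALDH1A2, ALDH1A3, ALDH1B1, ALDH1L2, ALDH2, ALDH3A1, ALDH3A2, ALDH3B1 and ALDH7A1. Their RNA was measured by RNA sequencing in cells labelled OVCAR3-KRAB. That is an ovarian cancer cell line that stably carries dCas9-KRAB, a catalytically dead Cas9 fused to a transcriptional repressor domain. Every library carried that transgene together with 1 guide RNA, which was either a control guide (sgCtl) or a guide against the XIST promoter (sgXIST7 or sgXIST9). For each guide 3 libraries came from cells in normoxia and 3 from cells kept at 1% oxygen for 24 h (hypoxia), which gives 6 groups and 18 libraries. The question put to the family was which of its genes supply the RNA behind the aldehyde dehydrogenase activity that is used as a stem cell marker, and whether that supply moved with XIST or with oxygen.

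Aldehyde dehydrogenases oxidise aldehydes to carboxylic acids with NAD+ or NADP+ as the electron acceptor. ALDH1A1, ALDH1A2 and ALDH1A3 turn retinal into retinoic acid, the ligand of the RAR nuclear receptors, and the fluorescent substrate assay that marks stem-like tumour cells is usually attributed to the ALDH1A enzymes. The other members sit in different places: ALDH2 and ALDH1B1 are mitochondrial enzymes that clear acetaldehyde, ALDH3A2 oxidises long-chain fatty aldehydes, ALDH7A1 acts in lysine breakdown and ALDH1L2 oxidises formyltetrahydrofolate in mitochondria. RNA was measured here, and neither enzyme protein nor activity was.

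The paper describes clonal lines for the control guide and the XIST guides, so an effect of a guide and a difference between clones cannot be told apart. It reports 3 biological replicates, and nothing in the labels says that replicates were separate cultures. The p-values therefore measure the spread between these libraries. XIST, the targeted RNA, had 4213 to 11209 counts per library in sgCtl normoxia, 1 to 5 in sgXIST7 normoxia and 650 to 1009 in sgXIST9 normoxia. Total counts ran from 11794375 to 24906936. Of the 10 ovarian epithelial markers examined, EPCAM (156 to 251 CPM, its counts scaled to a fixed library total) and KRT18 (129 to 251 CPM) were well expressed, KRT8 reached 4.07 to 43.3 CPM and PAX8 0.828 to 5.94 CPM, while MUC16, KRT7 and CDH1 had at most 4, 3 and 2 counts in any library and WT1, KRT19 and MSLN stayed under 1 CPM. The line is named after the sample titles and the paper, and its identity was not tested. All 5 leukocyte and 4 endothelial markers stayed under 1 CPM in every library. The summed level of the 5 fibroblast markers was 1.16 to 3.63 CPM in the sgCtl libraries and 33.5 to 308 CPM in the sgXIST libraries, and in the latter nearly all of it was COL1A2. DCN had at most 30 counts, LUM at most 7 and PDGFRB at most 8 in any library. The part of this difference in the guide comparisons was not tested, and in bulk RNA fewer cells of a type and less RNA per cell cannot be told apart. In hypoxia the third replicate was the one farthest from its 2 partners for each guide, with a median difference of 0.408 (sgCtl), 0.260 (sgXIST7) and 0.307 (sgXIST9) on the log2 scale against 0.0885 to 0.299 for the other libraries. For sgXIST7 the margin was narrow, as replicate 1 in hypoxia stood at 0.258. Results that depend on the third hypoxia replicates are given with and without them.

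The stretches of 250 bases before the start sites of ALDH1A1 and ALDH1A3 are shown because these genes, which catalyse the same retinal oxidation, gave the highest RNA level of the 10 and their largest response to the XIST guides. The sequences are from RefSeq (GRCh38.p14) and match hg38 base for base. ALDH1A1 is read on the minus strand at chr9:72953054-72953303 and ALDH1A3 on the plus strand at chr15:100879581-100879830. Capitals mark the letters ACGTG or GCGTG on either strand, the core of the element bound by hypoxia-inducible factors.
ALDH1A1: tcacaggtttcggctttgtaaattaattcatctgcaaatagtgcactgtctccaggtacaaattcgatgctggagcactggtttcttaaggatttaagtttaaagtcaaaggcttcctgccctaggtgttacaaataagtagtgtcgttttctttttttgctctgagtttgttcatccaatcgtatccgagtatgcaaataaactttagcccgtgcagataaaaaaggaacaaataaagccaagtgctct
ALDH1A3: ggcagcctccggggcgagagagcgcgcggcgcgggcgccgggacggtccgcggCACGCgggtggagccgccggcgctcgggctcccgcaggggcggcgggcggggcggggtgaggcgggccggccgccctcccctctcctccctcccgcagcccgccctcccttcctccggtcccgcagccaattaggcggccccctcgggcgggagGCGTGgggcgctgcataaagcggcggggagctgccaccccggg
The ALDH1A1 stretch was 38.4% G+C with 6 CpG dinucleotides and no capital core, while the ALDH1A3 stretch was 82.4% G+C with 38 CpG dinucleotides, 2 GCGTG cores and 6 GC boxes (GGGCGG on either strand). Both held 1 CCAAT box. Across 35116 RefSeq promoters of the same length, 43.2% held ACGTG or GCGTG, 42.6% a GC box and 32% a CCAAT box, so neither match is rare, and a match is a run of letters and not a measured binding site. Promoters were matched for 7 of the 10 members. Beside ALDH1A3, a core stood in 1 of 2 stretches for ALDH1A2, in 1 of 2 for ALDH3A2 and in the only one for ALDH1B1, and in none for ALDH3B1 and ALDH7A1.

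ALDH1A1 supplied almost all of the RNA of the 10 genes in every library. Levels are compared between genes in TPM, which divides each count by gene length and scales every library to the same sum, and ALDH1A1 held 94.2% to 97.3% of the summed TPM of the 10 genes (median 96.1%) over the 18 libraries. Its TPM ran from 1253 to 3353, which ranked it between 10 and 26 among all genes of a library. In sgCtl normoxia its 3 libraries stood at 2885, 3353 and 2896 TPM. The next of the 10 genes there, ALDH3A2, reached 41.9 ± 2.08 TPM (SD, n = 3), followed by ALDH7A1 at 35.9 ± 5.16 and ALDH1B1 at 33.3 ± 1.53. The ranges of ALDH3A2 and ALDH7A1 overlapped, as did those of ALDH7A1 and ALDH1B1, so their order in that group is not resolved. ALDH3B1 (3.08 ± 0.696 TPM), ALDH1A3 (2.58 ± 0.358 TPM) and ALDH2 (0.878 ± 0.218 TPM) lay an order of magnitude lower again. Of the 3 retinal-oxidising enzymes, ALDH1A3 held at most 0.123% of the 10 genes' TPM in any library and ALDH1A2 at most 0.00723%.

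**Figure D1:**
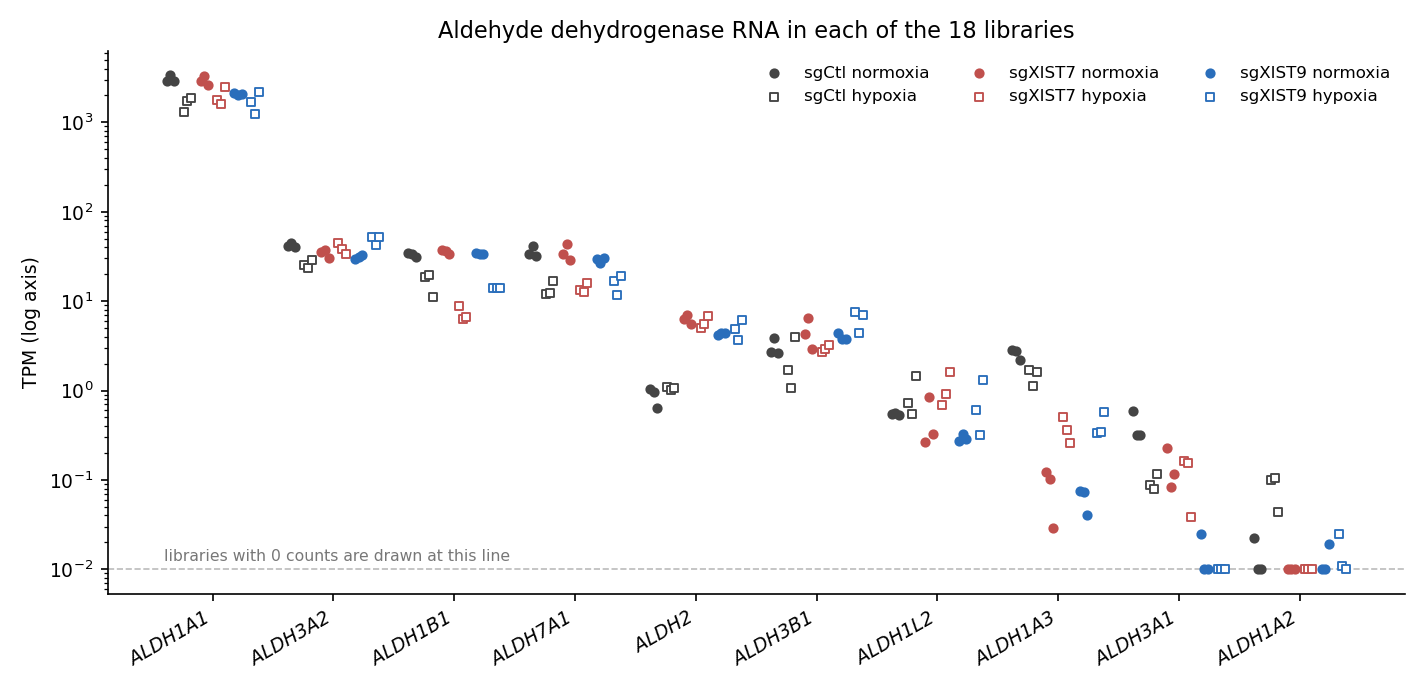
Each point is the TPM of 1 gene in 1 library (log axis), with genes ordered by median, filled circles for normoxia and open squares for hypoxia. ALDH1A1 lies between 1253 and 3353 TPM and none of the other 9 plotted genes exceeds 52.7 TPM.

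The share of ALDH1A1 was nearly the same in the 6 groups. It averaged 96.2% ± 0.124 in sgCtl normoxia, 96.3% ± 0.658 in sgCtl hypoxia, 96.2% ± 0.101 in sgXIST7 normoxia and 96.4% ± 0.781 in sgXIST7 hypoxia (SD, n = 3 each). In the sgXIST9 groups it averaged 95.3% ± 0.108 in normoxia and 94.8% ± 0.724 in hypoxia, and its 3 normoxia libraries lay below all 3 of sgCtl. With 3 libraries against 3, the two-sided exact permutation test cannot go below p = 0.1, and sgXIST9 reached that value against sgCtl in normoxia and against sgXIST7 in both oxygen conditions. The small remainder shifted in make-up: ALDH3A2 made up 1.44% of the total in sgXIST9 normoxia and 2.81% in sgXIST9 hypoxia, while ALDH1B1 went from 1.18% to 0.371% between sgXIST7 normoxia and hypoxia. Counting 9 further family genes in the total, among them ALDH9A1 at 55.9 ± 3.99 TPM in sgCtl normoxia and ALDH18A1 at up to 126 TPM, lowered the share of ALDH1A1 to between 88.7% and 92.9% as a group mean.

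**Figure D2:**
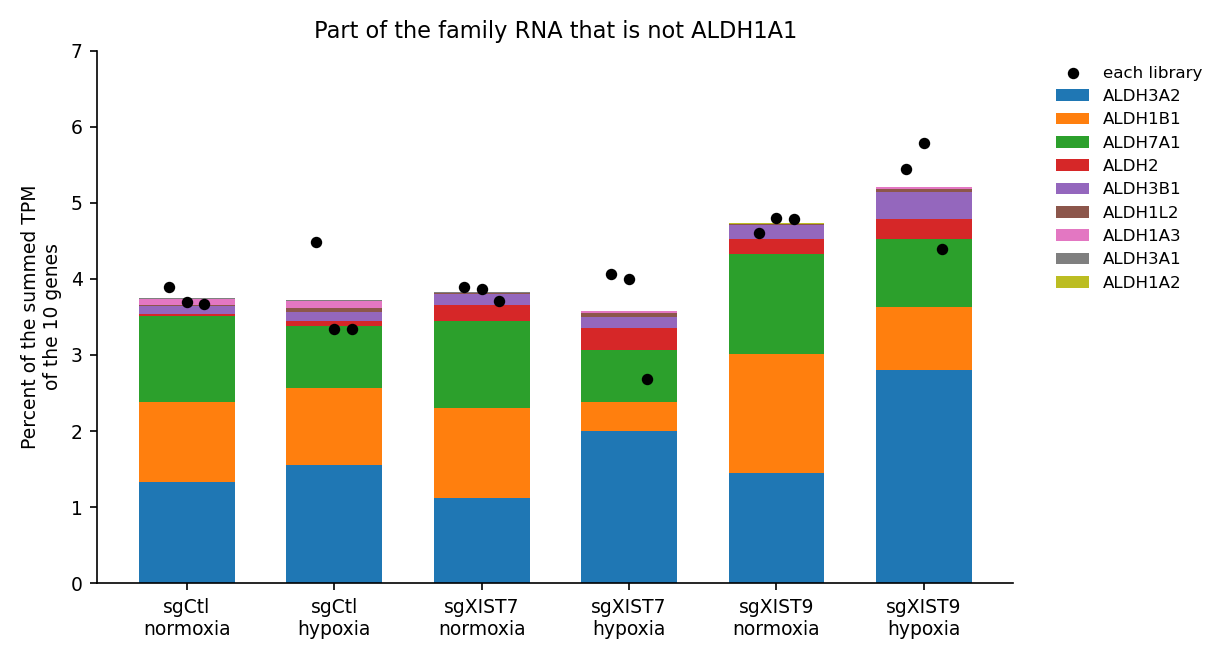
Bars stack the mean percent of the 10 genes' summed TPM held by each gene other than ALDH1A1 in the 6 groups, and points give the whole remainder in each library. The remainder stays between 2.68% and 5.79% and is carried mostly by ALDH3A2, ALDH1B1 and ALDH7A1.

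TPM was used to rank genes within a library and to give their shares of the summed TPM. TPM levels of single genes were not tested between groups. A single short RNA, RN7SL1, took 2.996% to 4.99% of the counts in normoxia and 5.05% to 8.13% in hypoxia. In sgCtl normoxia and hypoxia ALDH1A1 averaged 3044 and 1645 TPM, while its CPM averaged 4926 and 3422. The part of RN7SL1 in the wider TPM difference was not tested. Comparisons between groups below use counts with TMM-scaled library sizes and edgeR's quasi-likelihood test over 14938 genes. A gene is said to have risen or fallen where its Benjamini-Hochberg adjusted p is under 0.01 and its log2 fold change is past 1 in either direction. Of the 10 members, 8 had enough counts to be tested, and ALDH1A2 and ALDH3A1 did not.

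In CPM, ALDH1A1 stood at 4851, 4785 and 5142 in sgCtl normoxia, 4953, 4278 and 4886 in sgXIST7 normoxia and 3811, 3477 and 3629 in sgXIST9 normoxia. The sgXIST9 libraries lay below all the sgCtl libraries, where 53.9% of all genes did not overlap between these groups. The log2 fold change was -0.44 ± 0.16 (SE) with an adjusted p of 0.065 in edgeR. The sgXIST7 libraries overlapped those of sgCtl (log2 fold change -0.07 ± 0.16, adjusted p = 0.83). In hypoxia the gene stood at 2788, 3215 and 4263 CPM in sgCtl, 4131, 3713 and 5524 in sgXIST7 and 3421, 2969 and 4110 in sgXIST9. The third replicate was the highest of each group, and the groups overlapped. The dominant isoform did not pass the test in any of the comparisons between guides. Its log2 fold changes in hypoxia were 0.38 ± 0.16 for sgXIST7 (adjusted p = 0.068) and 0.03 ± 0.16 for sgXIST9 (adjusted p = 0.90). The sign of the latter turned under DESeq2 and under another count scaling (RLE), to -0.00133 and -0.000997, all close to 0. Without the third hypoxia replicate of every guide, sgXIST7 hypoxia replicates 1 and 2 lay above sgCtl hypoxia replicates 1 and 2. The share of all genes that separated in this way was not counted, so it cannot be called rare or common. In hypoxia edgeR then gave 0.39 ± 0.11 for sgXIST7 (adjusted p = 0.0077) and 0.09 ± 0.11 for sgXIST9 (adjusted p = 0.56). In normoxia the same fit gave -0.44 ± 0.09 for sgXIST9 over sgCtl (adjusted p = 0.0011). All of these values fell short of the fold change that the test requires.

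Under normoxia, 2 of the 8 tested members passed the test with each XIST guide, ALDH1A3 lower and ALDH2 higher with both. Among all genes, 7.76% passed for sgXIST7 and 7.70% for sgXIST9. ALDH3A1, which the edgeR filter left out of the 8, passed the test with sgXIST9 in every setting that kept it, from few counts. It is described below. The median log2 fold change of the 8 members was -0.06 for sgXIST7 and -0.25 for sgXIST9, beside -0.01 and -0.02 over all genes. The guides share the same sgCtl libraries, so their comparisons are not independent.

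ALDH1A3, the second retinal-oxidising isoform by level, was nearly lost. It had 117, 84 and 111 counts in the sgCtl normoxia libraries, 8, 4 and 2 with sgXIST7 and 5, 4 and 2 with sgXIST9. The groups did not overlap (45.5% of all genes did not for sgXIST7 and 53.9% for sgXIST9). The log2 fold change was -4.94 ± 0.40 for sgXIST7 (edgeR adjusted p = 9.6e-08) and -5.15 ± 0.41 for sgXIST9 (adjusted p = 7.0e-08). The lower groups rest on 14 and 11 counts in all, with exact 95% Poisson intervals of 7.65 to 23.5 and 5.49 to 19.7, which cover counting error only. Leaving out any 1 library kept the log2 fold change between -5.48 and -4.54 for sgXIST7 and between -5.32 and -4.94 for sgXIST9.

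ALDH2, the mitochondrial enzyme that clears acetaldehyde, moved the other way. It stood at 7.98, 6.27 and 5.11 CPM in sgCtl normoxia, 49.0, 41.2 and 47.2 with sgXIST7 and 34.4, 34.6 and 34.4 with sgXIST9. All sgXIST libraries lay above all sgCtl libraries. The rise was 2.83 ± 0.17 on the log2 scale with sgXIST7 (adjusted p = 2.1e-09) and 2.42 ± 0.17 with sgXIST9 (adjusted p = 1.1e-08). In TPM, ALDH2 averaged 6.29 ± 0.647 in sgXIST7 and 4.32 ± 0.0903 in sgXIST9, where its range overlapped that of ALDH3B1, while in sgCtl it lay below all ALDH3B1 libraries. The remaining 6 tested members had log2 fold changes between -0.33 and 0.51 with sgXIST7 and between -0.78 and 0.50 with sgXIST9, and none of them passed the test.

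**Figure D3:**
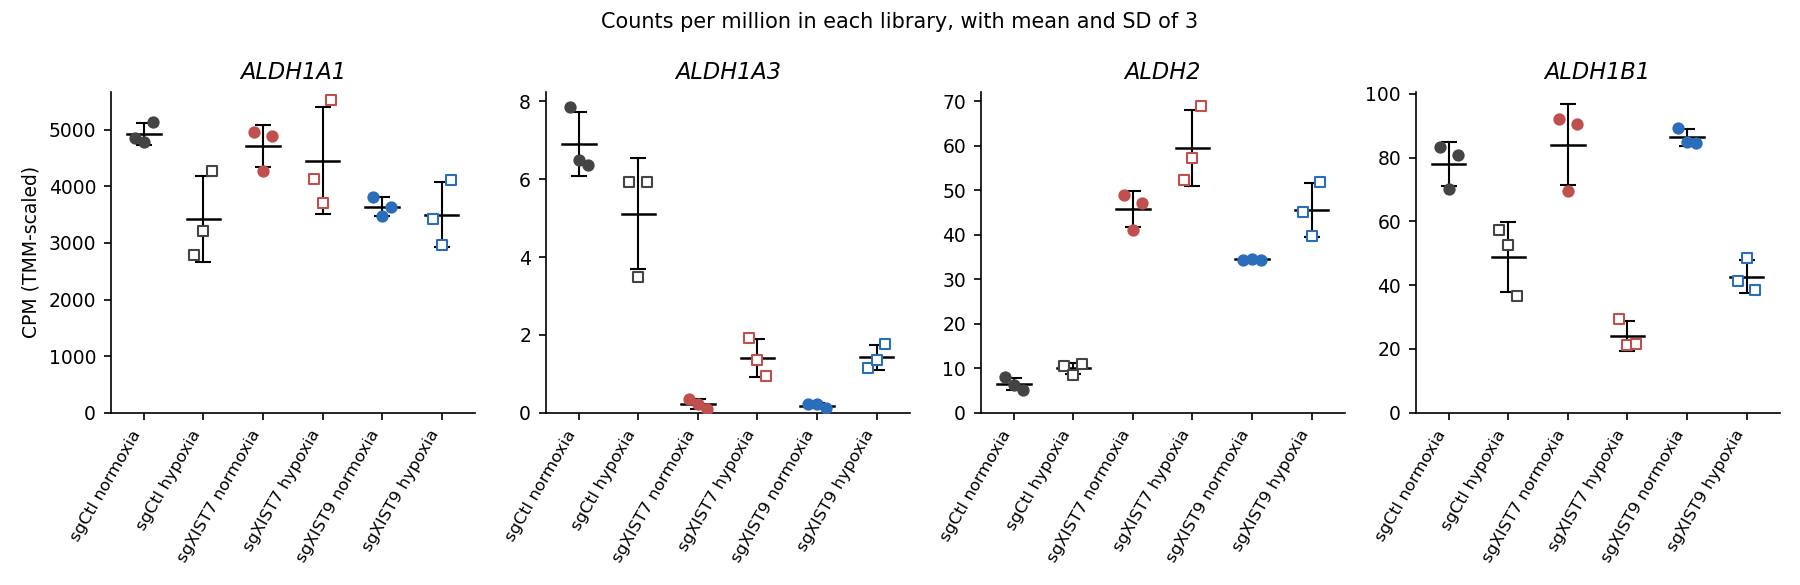
Points are TMM-scaled CPM in each library, with the mean (line) and SD (bar) of 3, for 4 members across the 6 groups (circles normoxia, squares hypoxia, linear axes from 0). ALDH1A1 overlaps between guides in hypoxia, while in normoxia all sgXIST9 libraries lie below those of sgCtl and sgXIST7. In sgCtl its hypoxia libraries all lie below its normoxia libraries. ALDH1A3 is near 0 in both sgXIST normoxia groups and partly restored in hypoxia. ALDH2 is above 34 CPM in every sgXIST library and under 11 CPM in every sgCtl library.

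In hypoxia, 3 of the 8 tested members passed the test with each guide, beside 14.0% of all genes for sgXIST7 and 9.53% for sgXIST9. The median log2 fold change of the members was 0.35 for sgXIST7 and 0.11 for sgXIST9, beside -0.02 and -0.01 over all genes. ALDH1A3 fell and ALDH2 rose again with both guides, ALDH1B1 fell with sgXIST7, and ALDH3B1 rose with sgXIST9.

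ALDH1A3 had 95, 70 and 67 counts in sgCtl hypoxia, 40, 30 and 11 in sgXIST7 hypoxia and 25, 30 and 28 in sgXIST9 hypoxia. The groups did not overlap in CPM (40.5% and 33.7% of all genes did not), but the gap was narrower than in normoxia, with log2 fold changes of -1.82 ± 0.32 (adjusted p = 0.00029) and -1.84 ± 0.32 (adjusted p = 0.00032). Fitting only the sgXIST9 and sgCtl groups gave an adjusted p of 0.012 for the latter. ALDH2 stood at 10.6, 8.59 and 10.9 CPM in sgCtl hypoxia, 52.4, 57.3 and 68.9 with sgXIST7 and 45.1, 39.7 and 51.9 with sgXIST9. Its log2 fold changes of 2.58 ± 0.16 (adjusted p = 4.0e-09) and 2.19 ± 0.16 (adjusted p = 2.6e-08) were close to those in normoxia, and the groups were again apart.

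ALDH1B1, a mitochondrial relative of ALDH2, stood at 57.2, 52.7 and 36.5 CPM in sgCtl hypoxia and at 29.4, 21.2 and 21.4 CPM in sgXIST7 hypoxia, without overlap. It fell by 1.02 ± 0.17 on the log2 scale (adjusted p = 0.00016), which is barely past the fold threshold: without sgCtl hypoxia replicate 1 or 2 the log2 fold change was -0.90 or -0.97, and without sgXIST7 hypoxia replicate 2 or 3 it was -0.94 or -0.95. Fitting only the groups compared also ended the call (adjusted p = 0.013). ALDH3B1, a family member that acts on lipid-derived aldehydes, stood at 5.13, 2.83 and 12.5 CPM in sgCtl hypoxia and 21.6, 14.7 and 18.2 CPM in sgXIST9 hypoxia. All 3 sgXIST9 libraries were above the sgCtl libraries, of which replicate 3 was far above its partners. The log2 fold change was 1.45 ± 0.35 (adjusted p = 0.0043), and 2.20 ± 0.27 without the 3 hypoxia libraries of replicate 3 (adjusted p = 7.7e-06). It missed the p threshold when sgCtl hypoxia replicate 1 or 2, or sgXIST9 hypoxia replicate 1 or 3, was left out (adjusted p between 0.010 and 0.029), and when only the groups compared were fitted (adjusted p = 0.097).

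ALDH3A2, which oxidises fatty aldehydes, was at 105, 85.3 and 127 CPM in sgCtl hypoxia, 200, 171 and 145 in sgXIST7 hypoxia and 206, 194 and 191 in sgXIST9 hypoxia. Neither sgXIST group overlapped sgCtl. Its log2 fold changes of 0.71 ± 0.14 (adjusted p = 0.00062) and 0.90 ± 0.14 (adjusted p = 9.2e-05) were under the fold threshold, which the sgXIST9 value passed without sgCtl hypoxia replicate 3 (1.05). ALDH7A1 and ALDH1L2 had log2 fold changes between -0.37 and 0.33 with adjusted p-values of 0.40 to 0.58, and ALDH1B1 gave -0.19 with sgXIST9 (adjusted p = 0.41). ALDH3B1 gave 0.49 ± 0.35 with sgXIST7 (adjusted p = 0.27), which became 1.24 and passed the test without sgCtl hypoxia replicate 3. Without the 3 hypoxia libraries of replicate 3, ALDH1A3 gave -1.51 and -1.90, ALDH2 2.53 and 2.15 and ALDH1B1 with sgXIST7 -1.12, all past the test, and ALDH3A2 with sgXIST9 (1.07) and ALDH3B1 with sgXIST7 (1.2001) passed it too.

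**Figure D4:**
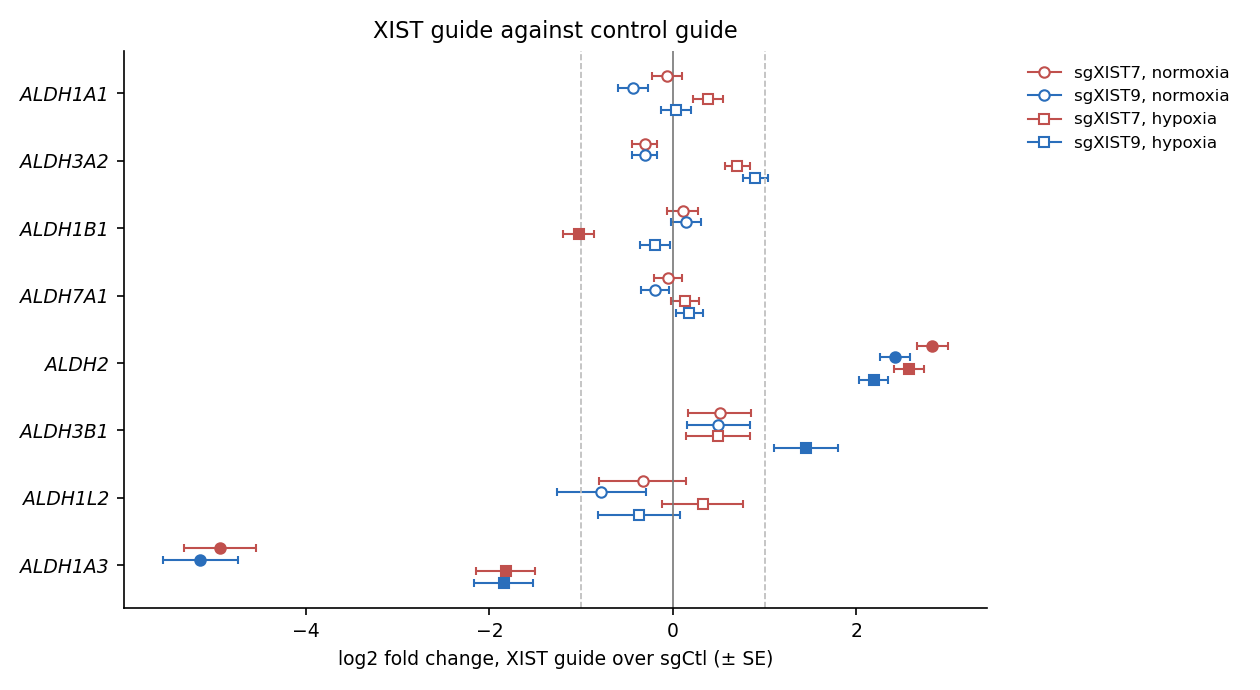
Log2 fold changes (± SE) of the 8 tested members, XIST guide over sgCtl, with circles for normoxia, squares for hypoxia and filled symbols where the test was passed. Dashed lines mark the fold threshold. ALDH2 lies between 2.19 and 2.83 and ALDH1A3 between -5.15 and -1.82, while ALDH1A1 stays between -0.44 and 0.38.

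The response to low oxygen was checked on 10 textbook hypoxia-inducible genes, of which 8 rose in sgCtl, 9 in sgXIST7 and 9 in sgXIST9. In the family, 1 of the 8 tested members passed the test in sgCtl, 3 in sgXIST7 and 2 in sgXIST9, beside 19.7%, 27.3% and 23.3% of all genes, so the members moved about as often as other genes did. The members' median log2 fold change was -0.38, 0.15 and 0.65, beside 0.02, 0.01 and 0.09 over all genes.

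ALDH7A1, the lysine-breakdown enzyme, stood at 128, 136 and 130 CPM in sgCtl normoxia and at 58.1, 52.7 and 86.3 CPM in sgCtl hypoxia. In sgXIST7 it stood at 131, 128 and 120 CPM in normoxia and 69.1, 65.7 and 81.1 CPM in hypoxia, and in sgXIST9 at 120, 106 and 118 CPM and 78.0, 63.0 and 82.0 CPM. Every hypoxia library lay below every normoxia library of the same guide, as libraries of the 2 conditions did not overlap for 54.9%, 63.9% and 65.9% of all genes in sgCtl, sgXIST7 and sgXIST9. The gene fell by 1.003 ± 0.15 on the log2 scale in sgCtl (adjusted p = 4.1e-05). The log2 fold changes of -0.82 ± 0.15 in sgXIST7 (adjusted p = 0.00019) and -0.63 ± 0.15 in sgXIST9 (adjusted p = 0.0020) were under the fold threshold. The sgCtl call lies on that threshold. It was lost without sgCtl hypoxia replicate 1 (-0.92) or 2 (-0.87), without sgCtl normoxia replicate 2 (-0.99) and, at -0.998 to -0.995, without any 1 hypoxia library of the XIST guides, and DESeq2 gave -0.98. It was -1.24 ± 0.10 without the 3 hypoxia libraries of replicate 3.

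ALDH1B1 was at 83.3, 70.2 and 80.8 CPM in sgCtl normoxia, 92.1, 69.4 and 90.5 in sgXIST7 normoxia and 89.4, 85.0 and 84.7 in sgXIST9 normoxia. In sgXIST9 hypoxia it was at 41.4, 48.4 and 38.4 CPM, and all hypoxia libraries were below the normoxia libraries of the same guide. It fell by 1.81 ± 0.17 on the log2 scale in sgXIST7 (adjusted p = 1.5e-07) and by 1.02 ± 0.17 in sgXIST9 (adjusted p = 7.1e-05). In sgCtl the log2 fold change was -0.68 ± 0.17 (adjusted p = 0.0028), under the fold threshold. The sgXIST9 value dropped under that threshold without sgXIST9 hypoxia replicate 1 (-0.98) or 3 (-0.94) or sgXIST9 normoxia replicate 1 (-0.99). Without the 3 hypoxia libraries of replicate 3 the sgXIST lines gave -1.72 and -0.94.

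ALDH1A3 rose with hypoxia in both sgXIST lines, from the few counts given above, by 2.68 ± 0.41 on the log2 scale in sgXIST7 (adjusted p = 3.2e-05) and 2.87 ± 0.43 in sgXIST9 (adjusted p = 2.9e-05). In CPM that was 0.346, 0.222 and 0.0871 in sgXIST7 normoxia against 1.91, 1.36 and 0.9496 in hypoxia, and 0.223, 0.212 and 0.117 in sgXIST9 normoxia against 1.14, 1.36 and 1.77 in hypoxia. In sgCtl it stood at 7.85, 6.50 and 6.37 CPM in normoxia and 5.94, 3.47 and 5.94 CPM in hypoxia, with a log2 fold change of -0.44 ± 0.30 (adjusted p = 0.23). The sgXIST libraries in hypoxia still lay below every sgCtl library of either condition. The rises were 2.88 and 2.70 without the 3 hypoxia libraries of replicate 3.

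ALDH1L2, the folate-linked mitochondrial member, was at 3.22, 2.86 and 3.39 CPM in sgCtl normoxia and 5.44, 3.62 and 11.6 in sgCtl hypoxia. In sgXIST7 it was at 1.60, 3.89 and 2.13 CPM in normoxia and 5.59, 7.48 and 12.7 in hypoxia, and in sgXIST9 at 1.74, 2.02 and 1.75 CPM and 4.42, 2.68 and 8.77. Hypoxia libraries were above the normoxia libraries for each guide, and the third hypoxia replicate was the highest each time. The gene rose by 1.75 ± 0.46 on the log2 scale in sgXIST7 (adjusted p = 0.0036). The fold changes of 1.10 ± 0.46 in sgCtl (adjusted p = 0.057) and 1.51 ± 0.47 in sgXIST9 (adjusted p = 0.012) missed the p threshold. The sgXIST9 value passed it without sgCtl hypoxia replicate 2 or 3 or sgXIST9 hypoxia replicate 2 and under DESeq2 and the replicate block, whose value was 1.40 (adjusted p = 0.0081). Without the 3 hypoxia libraries of replicate 3 the 3 values were 0.51, 1.39 and 0.95, of which the sgXIST7 value passed the test (adjusted p = 0.00078). The sgXIST7 call was lost without sgXIST7 hypoxia replicate 3 alone (1.39, adjusted p = 0.022) and without sgXIST7 normoxia replicate 1 (1.505) or 3 (1.64).

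The other 4 tested members did not pass the test for hypoxia. ALDH1A1 had a log2 fold change of -0.53 ± 0.16 in sgCtl (adjusted p = 0.012), -0.08 ± 0.16 in sgXIST7 and -0.06 ± 0.16 in sgXIST9. The sgXIST7 and sgXIST9 values turned to 0.044 and 0.053 without hypoxia replicate 2 of that guide. Without the 3 hypoxia libraries of replicate 3 the values were -0.71 (adjusted p = 1.7e-05), -0.25 and -0.18, still under the fold threshold. ALDH2 was higher in each hypoxia library than in the normoxia libraries of its guide, at 0.63 ± 0.17 (adjusted p = 0.0049), 0.38 ± 0.15 (adjusted p = 0.037) and 0.40 ± 0.15 (adjusted p = 0.029). ALDH3A2, at 134, 122 and 138 CPM in sgCtl normoxia, 116, 94.6 and 108 in sgXIST7 normoxia and 103, 106 and 110 in sgXIST9 normoxia, gave -0.32 ± 0.14 in sgCtl (adjusted p = 0.062) but 0.70 ± 0.14 (adjusted p = 0.00031) and 0.89 ± 0.14 (adjusted p = 3.7e-05) in the sgXIST lines. ALDH3B1 gave -0.07 ± 0.35, -0.08 ± 0.34 and 0.89 ± 0.33, the last with an adjusted p of 0.032, and without the 3 hypoxia libraries of replicate 3 the sgCtl value was -0.81 (adjusted p = 0.012).

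**Figure D5:**
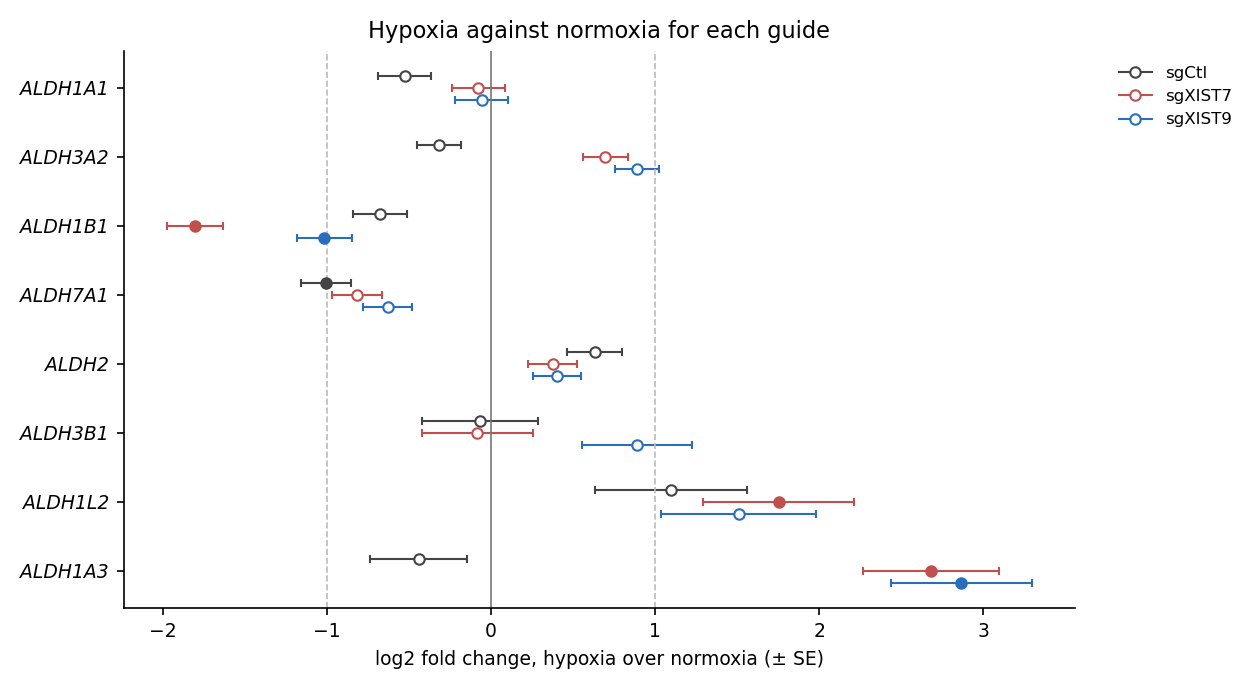
Log2 fold changes (± SE) of the 8 tested members, hypoxia over normoxia, for each guide, with filled symbols where the test was passed and dashed lines at the fold threshold. ALDH7A1 and ALDH1B1 lie below 0 and ALDH2 and ALDH1L2 above 0 for every guide, while ALDH1A3 and ALDH3A2 lie below 0 in sgCtl and above 0 in both sgXIST lines.

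Whether the response to hypoxia differed from that of sgCtl was tested as an interaction in the same edgeR fit. Of the 8 tested members, 3 passed for sgXIST7 and 2 for sgXIST9, beside 1.52% and 1.01% of all genes, and both tests use the same sgCtl libraries. The members' median interaction was 0.32 for sgXIST7 and 0.44 for sgXIST9, beside -0.01 and 0.04 over all genes. For ALDH1A3 the response exceeded that of sgCtl by 3.12 ± 0.51 on the log2 scale in sgXIST7 (adjusted p = 0.0024) and by 3.31 ± 0.53 in sgXIST9 (adjusted p = 0.0022). For ALDH3A2 the differences were 1.013 ± 0.19 (adjusted p = 0.0056) and 1.21 ± 0.19 (adjusted p = 0.0022). ALDH1B1 fell more in sgXIST7 than in sgCtl, by -1.13 ± 0.24 (adjusted p = 0.0090), and the difference was -0.34 ± 0.23 for sgXIST9 (adjusted p = 0.43). The ALDH3A2 and ALDH1B1 calls in sgXIST7 are fragile: 12 and 13 of the 18 single-library omissions ended them, and the values ran from 0.88 to 1.17 and from -1.31 to -1.003 over all 18. All 3 calls for sgXIST7 ended when only the 4 groups compared were fitted (adjusted p = 0.011 for ALDH1A3, 0.024 for ALDH3A2 and 0.030 for ALDH1B1). For sgXIST9, the ALDH1A3 call ended without sgXIST9 normoxia replicate 3 (3.10, adjusted p = 0.011) and the ALDH3A2 call without sgXIST9 normoxia replicate 1 (1.18, adjusted p = 0.011). Without the 3 hypoxia libraries of replicate 3, all 5 calls held and ALDH3B1 in sgXIST9 was added (1.71 ± 0.34, adjusted p = 0.0022). Leaving out sgCtl hypoxia replicate 3 alone also added it (1.71).

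Between the sgXIST lines no tested member passed the edgeR test in either oxygen condition, beside 3.40% of all genes in normoxia and 4.46% in hypoxia. At an unadjusted p under 0.05 there were 2 members in normoxia and 4 in hypoxia. The share of all genes under that p was not counted, so these numbers cannot be called many or few. DESeq2 called 0 and 1 members, the latter being ALDH3A1, which the edgeR filter left out and which is described below. The XIST levels of these lines differed widely, at a log2 fold change of -8.11 ± 0.71 for sgXIST7 over sgXIST9 in normoxia. ALDH1A3 differed by 0.21 ± 0.54 in normoxia and 0.03 ± 0.33 in hypoxia, and ALDH2 by 0.41 ± 0.15 (adjusted p = 0.10) and 0.38 ± 0.15 (adjusted p = 0.080), with the libraries of sgXIST7 above those of sgXIST9 in both conditions. Libraries of the sgXIST lines did not overlap for 40.7% of all genes in normoxia and 29.7% in hypoxia. ALDH1B1 in hypoxia gave -0.83 ± 0.17 (adjusted p = 0.0028), under the fold threshold, and -1.005, past the test, without sgXIST7 hypoxia replicate 1. ALDH3B1 in hypoxia gave -0.96 ± 0.34 (adjusted p = 0.057) and -1.004 ± 0.25 without the 3 libraries of replicate 3 (adjusted p = 0.0067).

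ALDH3A1 and ALDH1A2 were close to the limit of detection. The limit taken is 3 counts in a library, which is 0.130 to 0.266 CPM. ALDH3A1, an enzyme best known from cornea and from drug detoxification, had 15, 6 and 10 counts in sgCtl normoxia and 3 in each sgCtl hypoxia library. It had 9, 2 and 5 counts in sgXIST7 normoxia, 8, 8 and 1 in sgXIST7 hypoxia, 1, 0 and 0 in sgXIST9 normoxia and 0 in each sgXIST9 hypoxia library. In mean CPM it was at least 4.36-fold lower in sgXIST9 than in sgCtl normoxia and at least 3.39-fold lower in sgCtl hypoxia than in sgCtl normoxia, both against a floor of 3 counts per library, and the exact two-sided permutation p was 0.1, the smallest that 3 against 3 can give. DESeq2, which kept the gene, called it lower with sgXIST9 in normoxia (log2 fold change -5.18, adjusted p = 0.0015) and in hypoxia (-4.42, adjusted p = 0.0097). Over the 19 settings that tested ALDH3A1, the normoxia call was made in 19 (-6.64 to -4.43, adjusted p up to 0.0042). The hypoxia call was made in 4 of 19. Between the sgXIST lines in hypoxia ALDH3A1 was at least 1.80-fold higher in sgXIST7 against the same floor. ALDH1A2, the third retinal-oxidising isoform, had 6, 7 and 2 counts in sgCtl hypoxia and at most 2 counts in any other library. It was at least 1.49-fold higher in sgCtl hypoxia than in sgCtl normoxia against the same floor, with p = 0.1 in the exact permutation test.

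Of 9 further family genes, 7 could be tested and 4 passed the test in some comparison. With hypoxia 1, 2 and 2 of the 7 rose in sgCtl, sgXIST7 and sgXIST9, and none fell. Among all genes 19.7%, 27.3% and 23.3% passed there, shares near those of the 7. With the XIST guides 1 passed, for sgXIST9 in hypoxia, beside 9.53% of all genes. ALDH18A1, which makes the precursor of proline, stood at 103, 104 and 106 CPM in sgCtl normoxia and 226, 213 and 318 in sgCtl hypoxia. It rose by 1.27 ± 0.18 on the log2 scale in sgCtl (adjusted p = 1.6e-05) and by 1.66 ± 0.18 in sgXIST7 (adjusted p = 5.3e-07), and had 0.95 in sgXIST9, under the fold threshold. ALDH8A1, which oxidises retinal and intermediates of tryptophan breakdown, had 0 to 4 counts in every normoxia library. In hypoxia it had 18, 39 and 1 counts in sgCtl, 23, 22 and 3 in sgXIST7 and 26, 40 and 5 in sgXIST9, the third replicate being the lowest each time. It passed the test in sgXIST7 (adjusted p = 0.0046) and sgXIST9 (adjusted p = 0.0030) and not in sgCtl (adjusted p = 0.025), and the interaction with sgCtl did not pass for either line (adjusted p = 0.62 and 0.65). ALDH4A1, the proline-breakdown enzyme, rose in sgXIST9 hypoxia (1.15 ± 0.19, adjusted p = 6.4e-05). ALDH5A1, the succinic semialdehyde enzyme, was higher in sgXIST9 than in sgCtl hypoxia (1.013 ± 0.18, adjusted p = 0.00031).

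Of 25 genes that carry, form, degrade or sense retinoids, 16 could be tested. With the XIST guides in normoxia 1 rose for sgXIST7 and 4 for sgXIST9 and none fell, and in hypoxia 3 rose and 1 fell for sgXIST7 and 4 rose for sgXIST9, beside 7.76%, 7.70%, 14.0% and 9.53% of all genes that passed in these comparisons. STRA6, the retinol uptake receptor, rose in all of these: by 3.47 ± 0.48 and 3.19 ± 0.48 in normoxia (adjusted p = 4.5e-05 and 0.00010) and by 3.70 ± 0.44 and 3.09 ± 0.43 in hypoxia. In sgXIST9 normoxia the other 3 were RDH10, which makes retinal from retinol (4.34 ± 0.35), RDH5 (1.94 ± 0.34) and CYP26A1, which degrades retinoic acid (4.0004 ± 0.35). RDH10 and RDH5 were named after their values were seen. RDH10 and CYP26A1 also differed between the sgXIST lines, at -3.50 ± 0.33 and -3.38 ± 0.32 for sgXIST7 over sgXIST9 in normoxia (adjusted p = 1.3e-06 and 9.9e-07). With hypoxia 5, 3 and 3 of the 16 rose and 2, 1 and 1 fell in sgCtl, sgXIST7 and sgXIST9, beside 19.7%, 27.3% and 23.3% of all genes that passed, a share near that of the list in both sgXIST lines. STRA6 rose for every guide, by 1.87 ± 0.50, 2.10 ± 0.39 and 1.77 ± 0.39. FABP5, which carries retinoic acid and fatty acids, fell for every guide, by 1.008 ± 0.20, 1.88 ± 0.20 and 1.62 ± 0.20. CYP26B1 rose in sgCtl (3.69 ± 0.77) and sgXIST9 (3.82 ± 0.69), RXRB and RETSAT rose in sgCtl (2.49 ± 0.72 and 1.21 ± 0.13), and CYP26A1 rose in sgXIST9 (1.87 ± 0.26).

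All 14 folate one-carbon enzymes, the pathway of ALDH1L2, could be tested, and 4 fell with hypoxia for each guide while none rose. That count is near the 19.7%, 27.3% and 23.3% of all genes that passed in sgCtl, sgXIST7 and sgXIST9. MTHFD1, the cytosolic enzyme that forms formyltetrahydrofolate, fell by 1.86 ± 0.14, 1.69 ± 0.14 and 1.37 ± 0.13 on the log2 scale in sgCtl, sgXIST7 and sgXIST9. GCSH, of the glycine cleavage system, fell by 1.67 ± 0.15, 1.64 ± 0.15 and 1.54 ± 0.15. SHMT1 fell in sgCtl and sgXIST7, TYMS in sgCtl and sgXIST9, and FPGS in sgXIST7 and sgXIST9. With the XIST guides none of the 14 rose, and 1 (MTHFD2L with sgXIST7 in normoxia, -1.02 ± 0.10, named after its value was seen) fell. Of 17 further enzymes of aldehyde and carbonyl metabolism, 7 could be tested. AKR1C3, a ketosteroid and prostaglandin reductase, was higher with both guides in hypoxia, by 5.18 ± 0.44 (adjusted p = 1.5e-07) and 5.81 ± 0.43 (adjusted p = 2.7e-08). In normoxia the guides went in opposite directions. The gene rose with sgXIST9 (1.68 ± 0.30, adjusted p = 0.00054) and gave -1.13 ± 0.36 with sgXIST7, which missed the p threshold (adjusted p = 0.031). It fell with hypoxia in sgCtl by 3.39 ± 0.50 and rose in sgXIST7 by 2.92 ± 0.32. AOX1 rose with hypoxia in sgCtl (4.20 ± 0.87), AKR7A2 in sgXIST7 (1.06 ± 0.22) and AKR1C1 in sgXIST9 (1.16 ± 0.26).

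The genes whose log2 CPM followed ALDH1A3 most closely over the 18 libraries, out of 13213 compared, were CADM4 (Pearson r = 0.968), MTHFD2L (0.956) and CALCRL (0.954). For ALDH1A1 they were COL5A2 (0.918), VEZT (0.876) and SEMA3C (0.860). Between the members themselves the coefficients were lower, at 0.03 for ALDH1A3 with ALDH1A1 and -0.79 for ALDH1A3 with ALDH2. These coefficients describe libraries that share guides, oxygen conditions and depth, and they carry no test.

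On hg38 the genes of the main results were annotated as follows: ALDH1A1 on chromosome 9 from 72900671 to 72953053 (minus strand), ALDH1A3 on chromosome 15 from 100879831 to 100916625 (plus strand), ALDH2 on chromosome 12 from 111766933 to 111817531 (plus strand) and ALDH1B1 on chromosome 9 from 38392702 to 38398660 (plus strand). All 32-base windows of the ALDH1A1 exons occurred once in the genome, as did 100% for ALDH1A2 and ALDH3A1, 72.2% for ALDH2 and 90.6% for ALDH1B1. Of the 3468 exon bases of ALDH1A3, 1715 (49.5%) overlap LOC101927751 on the opposite strand. That gene had 0 to 3 counts per library, and the strand setting of the counting is not given in the sources used here. The 13 genes with all exon bases shared with the opposite strand had a median of 9.09 counts per kb. It was 429 for genes with 60% to 90% shared and 274 for genes with none. How reads on the shared bases of ALDH1A3 were assigned, and any effect on its level, was not tested.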

How the data were processed

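Total RNA libraries (TruSeq Stranded Total RNA) of 18 samples were trimmed with Trimmomatic, checked with FastQC, aligned to hg38 with HISAT2 and counted with featureCounts by the authors, who used DESeq2 for their own comparisons. Tool versions are not given in the sources used here. The deposited table holds raw counts per gene with gene length. Of its 28279 lines 2 were broken and left out. Groups came from the sample titles. TPM was computed from the counts and the table's lengths.

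Counts were fitted with edgeR 4.0.16 (R 4.3.3, limma 3.58.1): filterByExpr (minimum count 10, total 15), TMM (factors 0.859 to 1.12), 6 groups in 1 robust quasi-likelihood fit, Benjamini-Hochberg over 14938 genes, prior count 0.125. The threshold (adjusted p under 0.01, log2 fold change past 1) applies throughout. Alternatives were DESeq2 1.42.0, RLE scaling, other filters, only the groups compared, a replicate block, adjusted p under 0.05, and leaving out libraries. The edgeR fit was tested on simulated counts.

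Named were all members, XIST, called family genes, and at most 6 genes a list that were called in both XIST lines or with hypoxia. Members and lists were chosen with earlier results of these data known. Library totals of 11794375 to 24906936 put 3 counts, the detection floor, at 0.130 to 0.266 CPM.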

Additional observations from a re-analysis of the deposited data

Results flagged for a closer look

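The response to hypoxia of 3 members differed between an XIST line and sgCtl by a test of the difference itself (the interaction term in edgeR), which is why they are listed. For ALDH1A3 the difference in log2 fold change was 3.12 (sgXIST7) and 3.31 (sgXIST9): the gene rose from 2 to 8 counts per normoxia library to 11 to 40 per hypoxia library in the sgXIST lines, while the sgCtl libraries went from 84 to 117 counts to 67 to 95. For ALDH3A2 it was 1.013 and 1.21, with 94.6 to 116 CPM in the sgXIST normoxia libraries and 145 to 206 CPM in hypoxia beside 122 to 138 and 85.3 to 127 CPM in sgCtl. For ALDH1B1 it was -1.13 in sgXIST7. The RN7SL1 share was higher in hypoxia. The third hypoxia replicate was the farthest from its partners for every guide, though narrowly in sgXIST7. The part of both in these differences was not tested, except that all 5 calls held without the 3 hypoxia libraries of replicate 3.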

How the results depend on the processing

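Counts of called members changed by more than 1.5 times as follows. Fitting only the groups compared gave 1 for sgXIST9 over sgCtl in hypoxia, 0 for hypoxia in sgCtl and 0 for the sgXIST7 interaction. DESeq2, RLE scaling and a mean CPM of at least 1 each gave 0 for hypoxia in sgCtl. A mean CPM of at least 1, and leaving out the 3 hypoxia libraries of replicate 3, each gave 1 for hypoxia in sgXIST9. For sgXIST7 over sgXIST9 in hypoxia, DESeq2 gave 1, no filter gave 1 and leaving out the replicate 3 hypoxia libraries gave 2. These were ALDH3A1, near the detection limit, and in the last also ALDH3B1. With fewer libraries in a fit its residual degrees of freedom are fewer; other causes were not tested. Leaving out 1 library at a time, the counts ranged from 2 to 2 (sgXIST7) and 2 to 3 (sgXIST9) in normoxia, 2 to 4 for each guide in hypoxia, 0 to 1, 2 to 3 and 1 to 3 for hypoxia in sgCtl, sgXIST7 and sgXIST9, 1 to 3 for each interaction, and 0 to 0 and 0 to 1 between the sgXIST lines in normoxia and hypoxia.

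With all 19 family genes in the total, the mean share of ALDH1A1 was 92.9% and 90.1% in sgCtl normoxia and hypoxia, 92.7% and 90.02% in sgXIST7, and 90.6% and 88.7% in sgXIST9, lower by construction. Lengths from GENCODE moved none of the 6 means by more than 1 SD. ALDH1A1 for sgXIST9 over sgCtl in hypoxia, 0.03 on the log2 scale, became -0.00133 with DESeq2 and -0.000997 with RLE, and ranged from -0.10 to 0.22 with 1 library left out. With 1 library left out, its hypoxia value in sgXIST7 lay between -0.25 and 0.044 and that in sgXIST9 between -0.18 and 0.053.

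The labels give each group replicates 1 to 3. Deviations of same-numbered libraries correlated at -0.0676 to 0.566 and above 0.1 in 14 of 27 pairs. All 3 pairs passed 0.1 for sgXIST7 with sgCtl in normoxia (0.148 to 0.379) and for sgXIST9 with sgCtl in hypoxia (0.197 to 0.566), so the numbers may pair libraries there, though no label names a shared batch. The block changed no call in these comparisons. In all comparisons the replicate block changed 1 call, ALDH1L2 with hypoxia in sgXIST9 (1.40), and no count by over 1.5 times. Over all genes DESeq2 called 550 and 370 interactions for sgXIST7 and sgXIST9 where edgeR called 227 and 151. Depth limits ALDH1A2, ALDH3A1 and ALDH1A3 in the sgXIST normoxia groups.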
